A study of Rattus norvegicus with 6 samples.

Results

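Type IV collagen chains and the proteins that join them in basement membranes were followed in rat glomerular isolates. The set was defined by name and held 10 genes, which were the chains Col4a1, Col4a2, Col4a3, Col4a4, Col4a5 and Col4a6, the heparan sulfate proteoglycans Agrn (agrin) and Hspg2 (perlecan), and the nidogens Nid1 and Nid2. Of these, 5 had a probeset that carried a single gene symbol and could be measured, Col4a1, Col4a3, Col4a4, Agrn and Nid2, out of 14506 genes measured in all. Each was represented by 1 probeset. Col4a2, Col4a5, Col4a6, Hspg2 and Nid1 were not analysed here, so the network that Col4a6 enters is not described.

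The arrays covered 3 PEC-enriched isolates, which were mostly or partly capsulated glomeruli held on a 90 µm sieve, and 3 PEC-deprived isolates, which were mostly decapsulated glomeruli held on a 75 µm sieve. PECs are the parietal epithelial cells that line Bowman's capsule. All rats were uninjured Sprague-Dawley males of unstated age, no cells were cultured for the arrays, and each array was hybridised with the RNA of 1 preparation. The comparison asks what parietal cells add to glomerular RNA. By the study's own counts under the microscope, however, each sieve fraction, over its preparations, held both kinds of glomeruli and some tubule fragments. The methods give 3 animals and describe sieves used in sequence, but do not say outright whether both isolates came from the same rats.

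Type IV collagen forms the meshwork of every basement membrane. Its chains assemble in trimers of fixed make-up. Trimers of the Col4a1 and Col4a2 chains are found in nearly all tissues and, in the glomerulus, lie in the mesangial matrix, next to the endothelium and in Bowman's capsule. Trimers of the Col4a3, Col4a4 and Col4a5 chains are made by podocytes and form the mature glomerular basement membrane, where mutations of the genes cause Alport syndrome. Trimers that hold Col4a6 with Col4a5 lie in Bowman's capsule and in smooth muscle. Nidogens connect the collagen meshwork with laminin, and agrin and perlecan carry heparan sulfate chains.

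The chain genes lie head to head in pairs (Col4a1 with Col4a2, Col4a3 with Col4a4, Col4a5 with Col4a6), and the genes of a pair share the stretch between their start sites. RefSeq promoter sequences of the GRCr8 assembly, which run from 250 bases before to 50 bases after a start site, were found for 9 of the 10 genes, and those of the measured chains are shown because Col4a3 and Col4a4 deviated alike from their own means across the arrays while Col4a1 did not follow them. Capitals mark the bases that also lie in the window of the partner gene (Col4a4 for Col4a3, Col4a3 for Col4a4 and Col4a2 for Col4a1), where they are read on the opposite strand. The windows are chr9:91323740-91324039, plus strand, for Col4a3, chr9:91323528-91323827, minus strand, for Col4a4 and chr16:84885347-84885646, plus strand, for Col4a1.
Col4a3: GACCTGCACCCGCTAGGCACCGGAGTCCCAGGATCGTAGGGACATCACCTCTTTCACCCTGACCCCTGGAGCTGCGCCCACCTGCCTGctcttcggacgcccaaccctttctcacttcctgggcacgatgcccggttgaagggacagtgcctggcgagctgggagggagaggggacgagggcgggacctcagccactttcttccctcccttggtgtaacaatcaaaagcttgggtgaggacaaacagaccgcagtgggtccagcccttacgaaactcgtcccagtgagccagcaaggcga
Col4a4: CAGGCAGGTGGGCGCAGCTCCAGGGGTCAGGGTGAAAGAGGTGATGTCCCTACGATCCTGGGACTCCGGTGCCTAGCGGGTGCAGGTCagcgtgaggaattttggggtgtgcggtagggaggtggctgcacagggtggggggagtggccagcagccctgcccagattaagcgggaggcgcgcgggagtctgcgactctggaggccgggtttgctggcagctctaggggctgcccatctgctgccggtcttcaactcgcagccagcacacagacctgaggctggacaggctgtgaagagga
Col4a1: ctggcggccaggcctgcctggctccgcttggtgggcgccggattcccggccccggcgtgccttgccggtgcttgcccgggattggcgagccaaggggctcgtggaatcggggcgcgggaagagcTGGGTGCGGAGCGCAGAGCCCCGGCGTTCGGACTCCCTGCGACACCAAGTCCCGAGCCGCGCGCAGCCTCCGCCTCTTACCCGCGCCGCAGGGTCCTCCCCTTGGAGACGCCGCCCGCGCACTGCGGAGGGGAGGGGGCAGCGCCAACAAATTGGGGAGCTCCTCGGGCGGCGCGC
The start sites of Col4a3 and Col4a4 were 412 bases apart and their windows shared 88 bases. Those of Col4a1 and Col4a2 were 76 bases apart and shared 176. The Col4a1 window had a GC content of 75%, against 62% for Col4a3, 65.3% for Col4a4 and a median of 51.7% over 33469 promoter windows. The GC box GGGCGG, searched on both strands, occurred on each strand once in the Col4a1 window and on 1 strand once in that of Col4a3, but had no match in that of Col4a4, and 33.1% of all windows held it. The CCAAT box CCAAT had 2 matches on the opposite strand of the Col4a1 window and none in those of Col4a3 and Col4a4, against 37.5% of all windows with a match. The TATA box TATAAA matched none of the 3 windows and 14.2% of all. Such matches describe letters only. Whether the shared stretch has a part in the likeness of Col4a3 and Col4a4 across the arrays was not tested.

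The deposited values are log2 values from RMA, a method that adjusts background, normalizes between arrays and summarizes a probeset. They ran from 2.13 to 13.87, with array medians between 6.69 and 6.75 and correlations between arrays from 0.982 to 0.994. The 12 measured podocyte markers stood above the array medians on every array, with no value under 10.17. All 11 measured parietal cell markers stood higher in mean in the PEC-enriched arrays, at a median log2 change of 1.02. So did all 14 proximal tubule markers, with a median of 1.04, and all 8 markers of the thick ascending limb, with a median of 1.74. Most of the parietal cell markers and some of the tubule markers had been reported as higher by the study from these same arrays. Their direction was thus known in advance. Of the parietal cell markers, Cdh6 and Pax8 were also seen as protein in tubules by the study. PEC-enriched replicate 1 stood apart from the other PEC-enriched arrays in markers of podocytes, endothelium and mesangium, and results that turn on it are also given without it.

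None of the 5 genes passed the threshold of the study's methods, an adjusted p under 0.01 (0 of 5 in limma, with 0% of 29215 probesets called). None had an unadjusted p under 0.05 in limma either (0 of 5, against 10.4% of probesets, made up of 5.77% higher and 4.66% lower). A regularised test with a local variance prior put 1 of the 5, Nid2, under an unadjusted p of 0.05, against 11.6% of probesets, and none under the adjusted threshold. PEC-enriched and PEC-deprived arrays overlapped in each of them (0 of 5 without overlap, against 15.0% of probesets, 7.24% with the PEC-enriched arrays higher and 7.79% with them lower). Their log2 fold changes, PEC-enriched minus PEC-deprived, ran from -0.31 for Nid2 to 0.18 for Col4a4. In a bulk isolate fewer cells of a type and less RNA per cell cannot be told apart, and with so few arrays the precision of each value is limited.

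Col4a1, the chain of the widespread network, showed the next to smallest difference of the 5 after Agrn. Its log2 values were 10.82, 10.70 and 10.51 in PEC-enriched replicates 1, 2 and 3, against 10.87, 10.58 and 10.77 in PEC-deprived replicates 1, 2 and 3. The highest and the next to lowest value were both PEC-deprived, and the groups lay across each other. Group means were 10.68 ± 0.16 for PEC-enriched and 10.74 ± 0.15 for PEC-deprived arrays (SD, n = 3 each). The log2 fold change was -0.06 with a standard error of 0.12 (limma adjusted p = 0.93). Its 95% interval, from -0.34 to 0.21, allows a level between 0.791 and 1.16 times that of PEC-deprived isolates. Across all probesets 65.1% had a larger absolute difference. The sign was not stable, with log2 fold changes from -0.14 to 0.02 as each array was left out in turn.

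Col4a3, a chain of the mature glomerular basement membrane, was split within the PEC-enriched group. Its log2 values were 10.87, 11.41 and 11.42 in PEC-enriched replicates 1, 2 and 3, against 11.17, 10.98 and 11.17 in PEC-deprived replicates 1, 2 and 3. PEC-enriched replicates 2 and 3 lay above every PEC-deprived array and PEC-enriched replicate 1 lay below every one. Group means were 11.23 ± 0.31 for PEC-enriched and 11.11 ± 0.11 for PEC-deprived arrays (SD, n = 3 each), so the log2 fold change was 0.13 with a standard error of 0.16 and a 95% interval from -0.24 to 0.49 (limma adjusted p = 0.88). Without PEC-enriched replicate 1 the log2 fold change was 0.31 (limma adjusted p = 0.297). It was 0.04 without PEC-enriched replicate 2, 0.03 without PEC-enriched replicate 3 and 0.06 without PEC-deprived replicate 2.

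Col4a4, the partner of Col4a3 in the same trimers, showed the same split. Its log2 values were 10.05, 10.50 and 10.44 in PEC-enriched replicates 1, 2 and 3, against 10.22, 10.08 and 10.16 in PEC-deprived replicates 1, 2 and 3. As for Col4a3, PEC-enriched replicate 1 was the lowest of all arrays and PEC-enriched replicates 2 and 3 were the highest. Group means were 10.33 ± 0.24 for PEC-enriched and 10.15 ± 0.07 for PEC-deprived arrays (SD, n = 3 each), so the log2 fold change was 0.18 with a standard error of 0.13 and a 95% interval from -0.13 to 0.48 (limma adjusted p = 0.76). The interval allows a level of 0.916 to 1.39 times that of PEC-deprived isolates. Without PEC-enriched replicate 1 the log2 fold change was 0.31 (limma adjusted p = 0.257). It was 0.09 without PEC-enriched replicate 2 and 0.12 without PEC-enriched replicate 3.

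Nid2, which encodes nidogen-2, had the largest mean difference of the 5, and its mean was lower in PEC-enriched isolates. Its log2 values were 11.24, 10.83 and 10.64 in PEC-enriched replicates 1, 2 and 3, against 11.22, 11.18 and 11.25 in PEC-deprived replicates 1, 2 and 3. The PEC-deprived arrays were close together, PEC-enriched replicate 1 lay among them and PEC-enriched replicates 2 and 3 lay below them all. Group means were 10.90 ± 0.31 for PEC-enriched and 11.22 ± 0.03 for PEC-deprived arrays (SD, n = 3 each). The log2 fold change was -0.31, or 0.805 times the PEC-deprived level, with a standard error of 0.15 and a 95% interval from -0.66 to 0.03 (limma unadjusted p = 0.0696, adjusted p = 0.54). Of all probesets 10.1% had a larger absolute difference. Without PEC-enriched replicate 1 the log2 fold change was -0.48 (limma adjusted p = 0.115), and without PEC-enriched replicate 3 it was -0.18.

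Agrn, whose product is a heparan sulfate proteoglycan of the glomerular basement membrane, differed least. Its log2 values were 10.37, 10.58 and 10.51 in PEC-enriched replicates 1, 2 and 3, against 10.61, 10.42 and 10.31 in PEC-deprived replicates 1, 2 and 3. Both the highest and the lowest array were PEC-deprived. Group means were 10.49 ± 0.11 for PEC-enriched and 10.44 ± 0.15 for PEC-deprived arrays (SD, n = 3 each), so the log2 fold change was 0.05 with a standard error of 0.11 and a 95% interval from -0.21 to 0.30 (limma adjusted p = 0.95). The interval allows a level of 0.864 to 1.23 times that of PEC-deprived isolates. Across all probesets 74.0% had a larger absolute difference, and the log2 fold change ran from -0.02 to 0.13 as each array was left out.

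**Figure D1:**
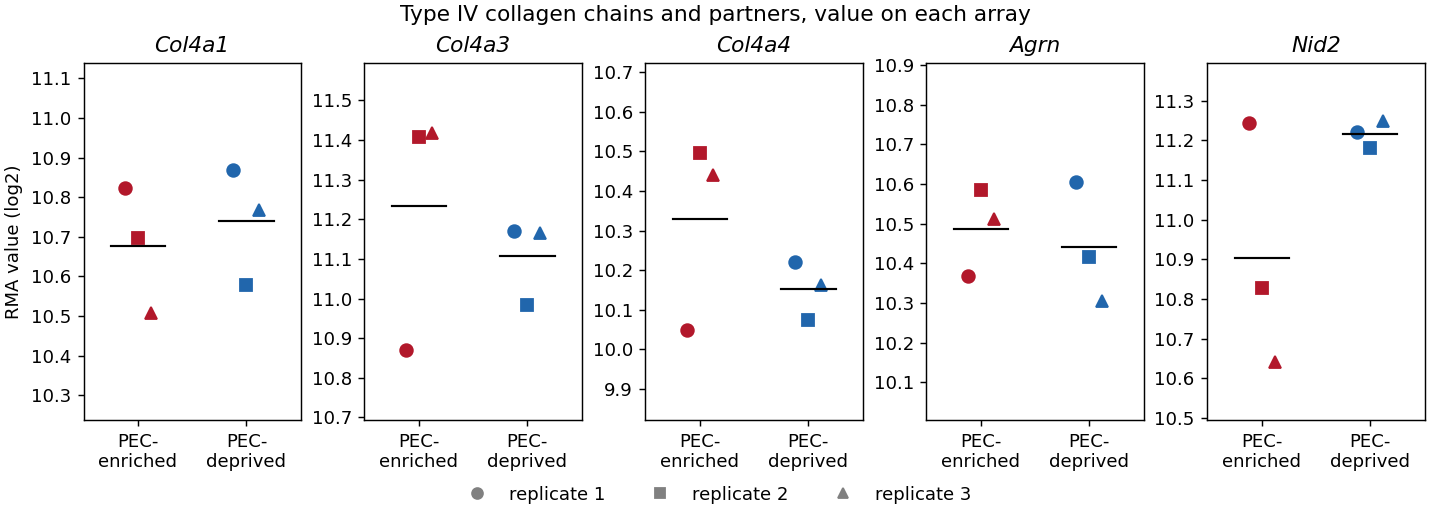
RMA log2 values (y axis) of the 5 measured genes in PEC-enriched (red) and PEC-deprived (blue) isolates, each symbol 1 array by replicate number and each line the mean of 3 arrays. Every panel spans the same log2 distance. In Col4a3, Col4a4 and Nid2 PEC-enriched replicate 1 (circle) lies apart from PEC-enriched replicates 2 and 3.

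Without PEC-enriched replicate 1, 3 of the 5 genes had an unadjusted p under 0.05 in limma, Col4a3 and Col4a4 with higher and Nid2 with lower means, against 12.4% of probesets. With any other array left out in turn none did (0 of 5 each time), against 1905 to 2963 of 29215 probesets. With so few genes, 0 of 5 is not far from those shares. In no case did one pass an adjusted p under 0.01. PEC-enriched replicate 1 was singled out with these values in view, so the values without it describe 2 arrays against 3 and are no evidence of a difference between the isolates.

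Whether chains of 1 network and of different networks differ in their change between isolates was asked with the difference of log2 values of 2 genes on the same array. Of 9 planned pairs, 2 could be formed from the measured genes. Col4a3 minus Col4a4, the head-to-head pair, was 0.82, 0.91 and 0.98 in PEC-enriched replicates 1, 2 and 3, against 0.95, 0.91 and 1.00 in PEC-deprived replicates 1, 2 and 3. This difference spanned 0.18 over the 6 arrays, while Col4a3 alone spanned 0.55 and Col4a4 alone 0.45. The pair thus held its ratio within a narrow band on arrays where each chain varied. Between isolates the difference averaged 0.90 ± 0.08 for PEC-enriched and 0.95 ± 0.05 for PEC-deprived arrays (SD, n = 3 each), a shift of -0.05 (exact permutation test, two-sided, p = 0.5, adjusted p = 0.5 over the 2 pairs). The shift ran from -0.09 to -0.01 as each array was left out.

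Col4a3 minus Col4a1, a pair from the different networks, varied more. It was 0.05, 0.71 and 0.91 in PEC-enriched replicates 1, 2 and 3, against 0.30, 0.40 and 0.40 in PEC-deprived replicates 1, 2 and 3. The span over the arrays was 0.86, wider than that of Col4a3 alone, since Col4a1 was high where Col4a3 was low in PEC-enriched replicate 1 and low where Col4a3 was high in PEC-enriched replicate 3. Group means were 0.56 ± 0.45 for PEC-enriched and 0.37 ± 0.06 for PEC-deprived arrays (SD, n = 3 each), a shift of 0.19 that was within the spread between arrays (exact permutation test, two-sided, p = 0.5, adjusted p = 0.5 over the 2 pairs). It ran from 0.01 to 0.44 as each array was left out. The smallest p that 3 arrays against 3 allow is 0.1. Only changes between arrays are read from these pairs, since the levels of different probesets are not comparable.

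**Figure D2:**
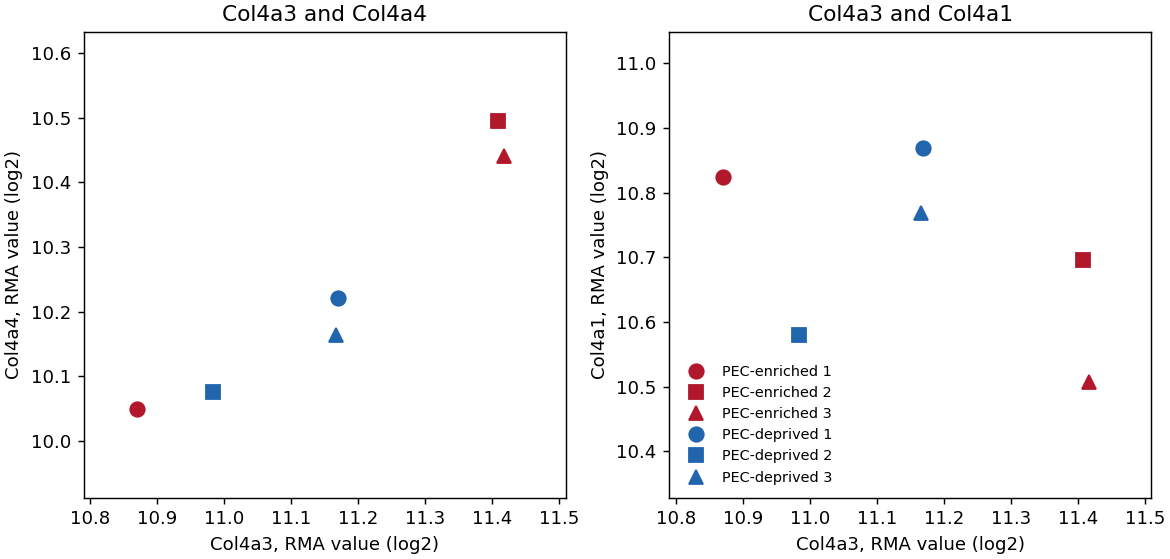
Log2 value of Col4a4 (left, y axis) and of Col4a1 (right, y axis) against that of Col4a3 (x axis), each symbol 1 array, PEC-enriched in red and PEC-deprived in blue, with shapes for replicate numbers. The Col4a3 and Col4a4 values rank the 6 arrays almost alike, with PEC-enriched replicate 1 lowest in both, and the Col4a1 values do not follow them.

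Genes of glomerular cell types varied on the same arrays. Podocyte markers, as a mean over 12 measured of 16 listed genes and relative to the mean of the 6 arrays, stood at -0.22, 0.11 and 0.12 in PEC-enriched replicates 1, 2 and 3, against -0.06, -0.01 and 0.05 in PEC-deprived replicates 1, 2 and 3. On the same scale Col4a3 stood at -0.30, 0.24 and 0.25 in the PEC-enriched arrays, against 0.00, -0.19 and 0.00 in the PEC-deprived arrays, and Col4a4 at -0.19, 0.25 and 0.20, against -0.02, -0.17 and -0.08. In PEC-enriched isolates the podocyte list and both chains were thus low on replicate 1 and high on replicates 2 and 3. On the PEC-deprived arrays the chains were lowest on replicate 2, where the podocyte list was not. The parietal cell list, like the chains, was lowest on replicate 1 of the PEC-enriched arrays (0.23, against 0.79 and 0.48). It was also lowest on replicate 2 of the PEC-deprived arrays (-0.72, against -0.21 and -0.58). The smooth muscle and renin cell list and the fibroblast list were lowest on the same arrays by narrower margins. The tubule lists were lowest on PEC-deprived replicate 2 but not on PEC-enriched replicate 1. Of the 12 podocyte markers 5 stood higher and 7 lower in mean in the PEC-enriched arrays, and their median log2 change was -0.03. The part of podocyte RNA, or of RNA from these other cells, in the values of Col4a3 and Col4a4 was not tested.

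Nid2 lay on the same side as the endothelial, mesangial and leukocyte markers. Relative to the mean of the 6 arrays Nid2 stood at 0.18, -0.23 and -0.42 in PEC-enriched replicates 1, 2 and 3, against 0.16, 0.12 and 0.19 in PEC-deprived replicates 1, 2 and 3. The mean of 14 endothelial markers (all 14 listed) stood at 0.10, -0.39 and -0.43 in the PEC-enriched arrays, against 0.18, 0.28 and 0.25 in the PEC-deprived arrays. That of 8 measured of 9 mesangial markers stood at 0.26, -0.35 and -0.28, against 0.12, 0.11 and 0.13. That of 8 leukocyte markers (all 8 listed) stood at 0.15, -0.53 and -0.27, against 0.26, 0.07 and 0.33. On PEC-enriched replicates 2 and 3 Nid2 and these lists were low together. All 14 endothelial markers stood lower in mean in the PEC-enriched arrays, at a median log2 change of -0.46, as did 6 of 8 mesangial markers, with a median of -0.34, and all 8 leukocyte markers, with a median of -0.44. No endothelial marker was under a log2 value of 7.13 no mesangial marker under 7.96 and no leukocyte marker under 5.21 on any array. The part of endothelial, mesangial and leukocyte RNA in the values of Nid2 was not tested.

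The means of the tubule and parietal cell lists were higher on each PEC-enriched array than on any PEC-deprived array. Proximal tubule markers stood at 0.31, 0.89 and 0.26 in PEC-enriched replicates 1, 2 and 3, against 0.11, -1.09 and -0.48 in PEC-deprived replicates 1, 2 and 3, and parietal cell markers at 0.23, 0.79 and 0.48, against -0.21, -0.72 and -0.58. Markers of the thick ascending limb stood at 1.14, 0.69 and 0.65 in the PEC-enriched arrays, against -0.20, -1.25 and -1.03 in the PEC-deprived arrays. Those of distal tubule and collecting duct (11 of 12 with a higher mean, median 0.53) stood at 0.49, 0.31 and 0.29, against -0.03, -0.54 and -0.52. Col4a1 spanned 0.36 over the arrays and Agrn 0.30, against a median of 0.38 over all probesets. Smooth muscle and renin cell markers (5 of 7 higher, median 0.08) stood at 0.06, 0.19 and 0.08, against -0.10, -0.13 and -0.10. Of the fibroblast markers 4 of 8 were higher in mean (median -0.04).

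**Figure D3:**
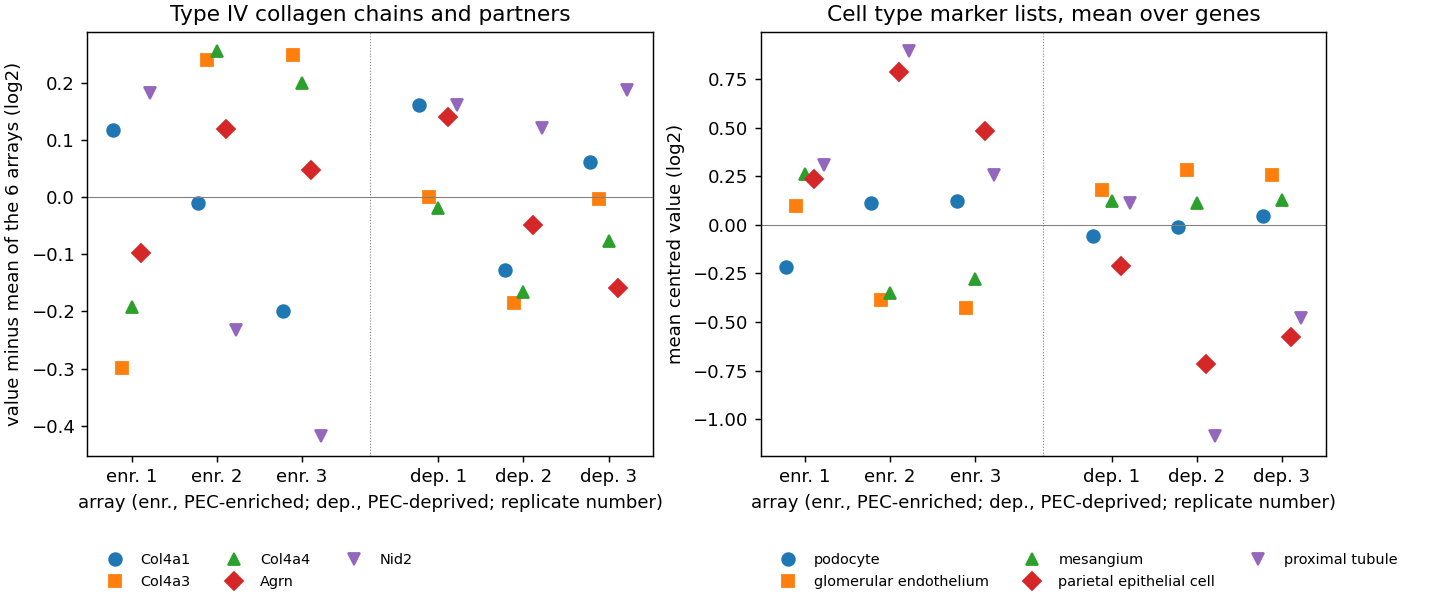
Values relative to the mean of the 6 arrays (y axis, log2) on each array (x axis, enr. for PEC-enriched and dep. for PEC-deprived isolates with the replicate number), for the 5 measured genes (left) and as means of marker lists (right, wider y axis). Col4a3 and Col4a4 are low on PEC-enriched replicate 1 and high on replicates 2 and 3, as are the podocyte markers, while Nid2 and the endothelial and mesangial markers run the other way.

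For the 3 of these genes with the widest range, the genes with the most similar values were looked up among all 14506, by the root mean square difference of log2 values centred on each gene's mean over the 6 arrays. Nid2 was nearest to Ifngr1 (0.0359), Hk1 (0.0406) and Gpr63 (0.0426). Col4a3 was nearest to Lage3 (0.0328), Vamp7 (0.0458) and Rcn1 (0.0470), with Col4a4 in place 7 at 0.0584. Col4a4 was nearest to Cyb561 (0.0293), Vamp7 (0.0304) and Dock11 (0.0321), with Col4a3 in place 42. Seen from Col4a3, Agrn came in place 1437, Col4a1 in place 10336 and Nid2 in place 13636. With 6 arrays many genes come close to any pattern, and these places are a description.

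Enzymes and chaperones that fold, modify and crosslink collagens, not type IV collagen alone, were measured for 20 of 23 listed genes. Of these 11 stood higher and 9 lower in mean in the PEC-enriched arrays, and their median log2 change was 0.03 against -0.02 over all genes. None passed in limma (0 of 20, with 0% of all probesets called). An unadjusted p under 0.05 was found for 3 of 20, all higher, against 5.77% of probesets that did so upward and 10.4% either way. Lox, lysyl oxidase, was highest at 1.08 (log2, standard error 0.20, limma adjusted p = 0.166), followed by Plod2, a lysyl hydroxylase, at 0.46 (standard error 0.16, adjusted p = 0.353). The lowest were P4ha2, a prolyl hydroxylase subunit, at -0.27 and Loxl1, a lysyl oxidase homologue, at -0.18. Lox stood alone among the crosslinking genes of the list. Loxl2 stood at -0.02, Loxl3 at 0.08, Loxl4 at -0.05 and Pxdn at -0.09, and in each the groups overlapped. The Lox values were 6.22, 7.07 and 6.37 in PEC-enriched replicates 1, 2 and 3, against 5.56, 5.46 and 5.40 in PEC-deprived replicates 1, 2 and 3, and the groups did not overlap.

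The other components of basement membranes fell into genes close to 0, like the collagen chains, and a few with large differences. Of 7 measured laminin chains (11 listed) 3 stood higher and 4 lower in mean, and their median log2 change was -0.01. An unadjusted p under 0.05 was found for 1 of 7, against 10.4% of probesets. This was Lama1, known from tubule basement membranes, at 0.57 (standard error 0.11, limma adjusted p = 0.166). Lamc3 stood at 0.19, Lamb2, the beta chain of the mature glomerular basement membrane, at -0.06, and Lamc1, the widespread gamma chain, at -0.21. Of 11 other basement membrane proteins (18 listed) 8 stood higher and 3 lower in mean, and their median log2 change was 0.12. An unadjusted p under 0.05 was found for 4 of 11, all higher, against 5.77% of probesets upward. Fras1, a protein that ties epithelium to its basement membrane in development, was highest at 1.62 (log2, standard error 0.22, limma adjusted p = 0.152), and Efemp1, a fibulin, stood at 1.45. Tinagl1, at -0.25, and Sparc, a collagen-binding matrix protein, at -0.05, were the lowest. None of the laminin chains (0 of 7) or other proteins (0 of 11) passed in limma, which called 0 of 29215 probesets. These counts therefore do not set the genes apart. At the same threshold the regularised test called 4 of the 11 other proteins, against 1.14% of probesets.

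Of 10 measured receptors of basement membrane collagen and laminin (12 listed), 8 stood higher and 2 lower in mean, and their median log2 change was 0.14. None passed in limma (0 of 10, with 0% of all probesets called). An unadjusted p under 0.05 was found for 4 of 10, all higher, against 5.77% of probesets upward. Ddr1, a receptor tyrosine kinase that binds collagen, stood at 0.68 (limma, standard error 0.13, adjusted p = 0.166) and Itga1, an integrin subunit that pairs with Itgb1 to bind type IV collagen, at 0.37. Ddr2, which prefers fibrillar collagens, stood at -0.31 and Itga7, a laminin receptor subunit, at -0.27. Of the 18 proteases and inhibitors (all listed genes), 7 stood higher and 11 lower in mean, and their median log2 change was -0.05. Of these 0 of 18 passed, with 0% of all probesets called, and 1 of 18 had an unadjusted p under 0.05, against 10.4% of probesets. Plau, the urokinase gene, was that one, at 1.77 (limma, standard error 0.35, adjusted p = 0.166), and Mmp14 stood at 0.33. Mmp9, a gelatinase that cleaves type IV collagen, stood at -0.73 and Adamts5 at -0.50, and in both the groups overlapped. On PEC-enriched replicate 1 Mmp9 lay among the PEC-deprived arrays, at 12.27 against 12.30, 11.98 and 12.39, and Adamts5 lay above them, at 11.04 against 10.93, 10.96 and 10.87. The means of the tubule, parietal cell and smooth muscle and renin cell marker lists were higher on the same arrays on which Lox, Fras1, Ddr1 and Plau were, and their part in these differences was not tested.

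Collagens listed as interstitial were measured for 9 of 13 genes. Of these 3 stood higher and 6 lower in mean, and their median log2 change was -0.13. The extremes were Col5a1 at 0.17, Col3a1 at 0.02, Col12a1 at -0.25 and Col5a2 at -0.29 (standard error 0.11, limma adjusted p = 0.384). None passed (0 of 9, with 0% of all probesets called). Col5a2 was the 1 gene of 9 with an unadjusted p under 0.05, against 10.4% of probesets.

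**Figure D4:**
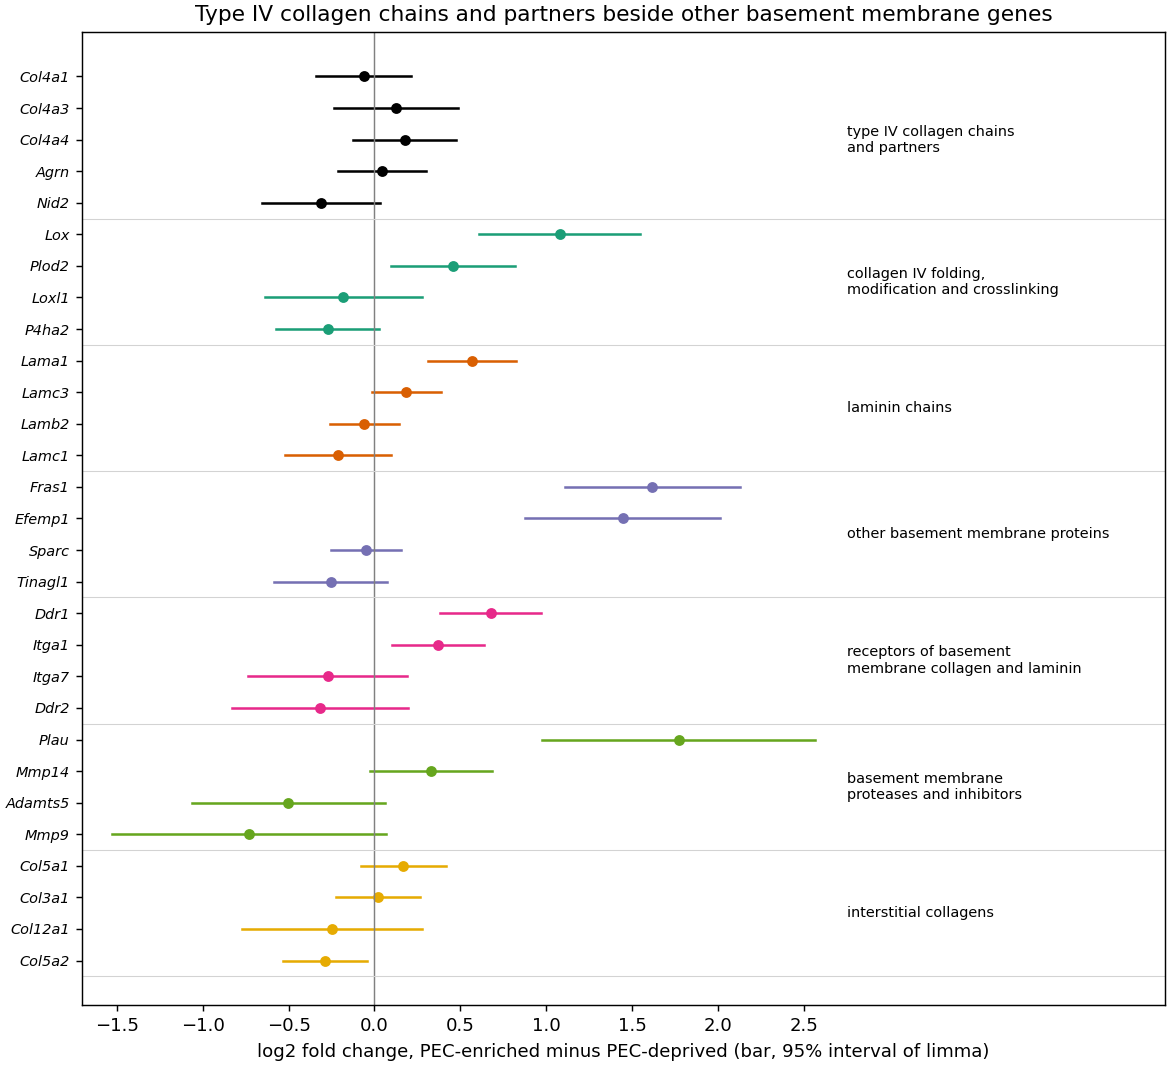
Log2 fold change, PEC-enriched minus PEC-deprived (x axis), of the 5 measured type IV collagen chains and partners (black, top) and of the 2 highest and 2 lowest genes of each basement membrane list (y axis, coloured by list), with the 95% interval of limma, not adjusted for the number of probesets, as bars. The intervals of all 5 genes at the top include 0, while those of Fras1, Efemp1, Plau and Lox do not. Those of Plod2, Lama1, Ddr1 and Itga1 (higher) and of Col5a2 (lower) do not either. The list genes were picked for their extreme values in these same data, so their intervals are not comparable with those of genes chosen by name.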

How the data were processed

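RNA of 3 PEC-enriched and 3 PEC-deprived glomerular isolates was measured on Affymetrix rat whole-transcript arrays, 1 array each. The authors deposited log2 values per probeset after RMA (background adjustment and quantile normalization). No source used here states a software version or how probesets were defined. The base of the logarithm was read from the values, whose maximum of 13.87 exceeds 11.09, the natural logarithm of the 16-bit maximum. Signal over background is unknown, since no scanner file entered the work.

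Symbols were taken from a 2016 annotation of the platform, and the 15310 probesets with 1 symbol were kept for naming. The probeset with the highest mean stood for a gene. All 29215 probesets were tested with limma 3.58.1 in R 4.3.3 (two-sided, no covariate) with Benjamini-Hochberg adjustment over all of them and called at an adjusted p under 0.01. The study's methods name a Bayesian form of the parametric t-test but give no prior weight or window. A test of this kind was run as an alternative (a regularised test with prior weight 10 and a window of 101 probesets). Its calls depended on the weight, with 334 probesets at an adjusted p under 0.01 for weight 10, 32 for weight 6 and 0 for weight 3. Genes named from lists were the 2 highest and 2 lowest of each, with the other crosslinking genes and those that the regularised test called. The genes, lists and pairs were chosen with earlier results of these data known. The code was tested on simulated data with known changes. There, at an adjusted p under 0.01, false calls made up 1.55% of the calls of limma and 10.4% of those of the regularised test. Changes of 1 log2 unit were recovered in 91% by limma and in 98% by the regularised test. The simulated noise was independent between probesets, and the changes were put on probesets drawn at random. On the real arrays limma called none of the 29215 probesets, so these shares need not hold there and do not rank the tests.

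Same-numbered arrays of both isolates deviated from their group means with correlations of -0.03, 0.05 and 0.10, so the replicate numbers were not taken as pairs. Arrays with unlike numbers had correlations from -0.14 to 0.08. These values cannot settle whether isolates shared a rat, since the numbers need not follow the rats. Whether replicates are separate rats is stated for preparations in general but not per array, and p-values measure the spread between these arrays. Alternatives were a replicate block, a variance prior with an intensity trend, the regularised test, array weights, other sets of probesets, median centring, cyclic loess, a threshold of 0.05, averaging the probesets of each gene, and each array left out. Figures were drawn with matplotlib 3.10.9.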

Additional observations from a re-analysis of the deposited data

How the results depend on the processing

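The count of type IV collagen chains and partners past the threshold was 0 of 5 under every alternative run, which says little, since 0 of 29215 probesets passed in limma and few or none did under most alternatives. Col4a3, Col4a4 and Nid2 kept their direction in all of them. Col4a1 ran from -0.14 to 0.0213 and Agrn from -0.0227 to 0.13 on the log2 scale as arrays were left out in turn, and both kept their direction under all other alternatives. Col4a1 changed sign without PEC-enriched replicate 3 or PEC-deprived replicate 1, and Agrn without PEC-enriched replicate 2 or PEC-deprived replicate 3. The lowest adjusted p of any of the 5 genes was 0.115, for Nid2 without PEC-enriched replicate 1. With the replicate number as a block (limma), Nid2 had adjusted p = 0.508, and the log2 fold changes were the same by construction. The block called 0 genes of any list, as it called 0 of 29215 probesets. For the pairs, the sign-flip exact permutation test within replicate numbers cannot go below p = 0.25.

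The regularised test at prior weight 10 called 1 gene of collagen folding and crosslinking (Lox), 4 other basement membrane proteins (Tinag, Fras1, Efemp1 and Egfl6), 1 receptor (Ddr1) and 1 protease (Plau), against 0 in limma for each list. It called 1.14% of probesets. At prior weights of 6 and 3, chosen after seeing the data, it called 3 and 0 other basement membrane proteins and 0 genes of the remaining lists. Leaving out PEC-enriched replicate 1, also chosen after seeing the data for the lists, called 0 genes of each list.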
